A study of Mus musculus with 12 samples.

Results

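The 10 genes described here license replication origins, start the replicative helicase or encode replication protein A (RPA). They are Cdc45, Cdc6, Mcm2, Mcm3, Mcm5, Mcm6, Mcm7, Rpa1, Rpa2 and Rpa3. They were chosen by symbol from the 55573 genes counted in each library, and Cdc45 and Rpa3 were chosen from their strong shifts in whole oocytes amplified for 18 cycles. Values of that contrast therefore describe the choice of genes and support nothing further. Each of the 10 symbols matched 1 gene, and all 10 genes passed the filter on low counts in each of the 3 sets of libraries compared.

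Before DNA is copied, the origin recognition complex, Cdc6 and Cdt1 load a ring of Mcm subunits onto each origin, a step called licensing. Cdc45 and the GINS complex then join the ring to form the active helicase, and RPA, a complex of a large, a middle and a small subunit, coats the single strands that the helicase exposes. A fully grown oocyte with an intact nuclear envelope, the germinal vesicle (GV), rests in meiotic prophase and does not copy its DNA, but it stores messenger RNAs for maturation and for the early divisions of the embryo.

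The study sequenced poly(A) RNA of single mouse GV oocytes in 12 libraries, 2 in each of 6 groups. Whole oocytes were amplified for 10, 14 or 18 cycles, 1 oocyte for each of 6 libraries, and fractions of 1/2, 1/4 and 1/8, made to examine spike-in normalization, came from dilutions of a further pair of oocytes, which the methods give as amplified for 18 cycles. The 6 fraction libraries therefore share these oocytes, the sources do not say which oocyte gave which library, and the tests among fractions treat them as separate samples. All oocytes came from a single healthy adult B6D2F1 female according to the methods and were kept in M2 medium with milrinone, which holds them at the GV stage, so all libraries are oocytes or dilutions from one animal and p-values measure the spread between these libraries alone. An equal amount of ERCC RNA, a spike-in mix of known molecules, was added to each library and no molecular identifiers were used. The whole oocytes at 18 cycles are the undiluted counterpart of the fractions, but the fractions were not tested against them here, because these oocytes entered the choice of Cdc45 and Rpa3.

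The counts on genes ranged from 9189672 to 13806199 in the whole oocytes at 10 and 14 cycles, which are called the low-cycle oocytes here. They were 3017069 and 1706478 in the whole oocytes at 18 cycles, 4024670 and 3598549 in 1/2, 4027907 and 5049518 in 1/4, and 11404262 and 1702062 in 1/8. Depth thus differed between the groups compared, and 1 count was worth 0.0724 CPM (counts per 1000000 gene counts) in the deepest library and 0.588 CPM in the shallowest. Cycle number, depth, oocyte and preparation cannot be told apart in the comparisons of whole oocytes. Each whole-oocyte library came from a single oocyte, so less RNA of a gene in the oocyte and poorer capture of that RNA cannot be told apart either. Replicates of a group differed by more than counting error, since chi-square divided by its degrees of freedom lay between 10.8 and 18.4 over genes, so none was a library counted again.

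The labelled cell was checked by marker genes. All 10 oocyte markers had counts in each of the 12 libraries, and Gdf9, a growth factor secreted by oocytes, was the most abundant of them with a median of 3608 CPM. The summed level of the 10 markers was 24524, 21931, 24248 and 25758 CPM in the low-cycle oocytes, but 7318 and 6069 CPM in the whole oocytes at 18 cycles. It was 9671 and 9022 CPM in 1/2, 13281 and 14507 CPM in 1/4, and 20421 and 20004 CPM in 1/8, so that oocyte markers as a group were lowest in whole oocytes at 18 cycles and closest to the low-cycle oocytes in 1/8. The 10 granulosa and cumulus markers summed to 73.5 to 135 CPM in the low-cycle oocytes, to 58.0 and 25.8 CPM at 18 cycles and to 30.8 to 77.4 CPM in the fractions. Nr5a2, with a median of 26.8 CPM, was the most abundant of these, while Fshr, the receptor that defines granulosa cells, had no count in 9 libraries. Inha reached 34.1, 31.9 and 17.2 CPM in 1 oocyte each at 10, 14 and 18 cycles, and stayed at or below 3.64 CPM in the other 9 libraries. Of the 6 blood and immune markers, 3 were at 0 in each library. The part of these markers in the values of the replication genes was not tested.

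The members lie on 7 chromosomes of GRCm38, with Rpa3 and Mcm2 on chromosome 6, Mcm3 and Mcm6 on chromosome 1, and Rpa1 and Cdc6 on chromosome 11. Cdc45 (ENSMUSG00000000028) spans 18780447 to 18811987 on the minus strand of chromosome 16, and its 17 exon blocks hold 3506 bases, of which 209 (5.96%) overlap exons of Ufd1 on the opposite strand. Rpa3 (ENSMUSG00000012483) spans 8255936 to 8259173 on the minus strand of chromosome 6 and is the shortest member, with a longest transcript of 670 bases and a GC content of 40.45%, at percentile 12 of protein-coding genes. The longest transcripts of the other 9 members have 1813 to 5077 bases and a GC content of 47.3% to 55.5%. No other gene with a stretch of at least 100 bases at 95% identity was found for Rpa3. Mcm7 overlaps Ap4m1 over 321 exon bases and Cops6 over 64, both on the opposite strand, and hosts Mir25, Mir93 and Mir106b.

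Near-identical copies could split reads of a member. The processed pseudogene Gm5487 matches Mcm7 over 2157 bases at 97.7% identity and had at most 4 counts in a library, where Mcm7 had 78 to 497. Gm9430 matches Cdc6 over 1528 bases at 95.2% and had at most 5 counts, where Cdc6 had 68 to 1131. Shorter stretches at 95% identity or more were found in Gm15654 for Mcm6 (182 bases) and in 18 genes for Mcm5 (100 to 141 bases). Reads that map equally well to a copy may have been left out of both genes, so the levels of Mcm7, Cdc6, Mcm5 and Mcm6 are uncertain to that extent. Ufd1, whose reads over the shared exons could not be told from those of Cdc45 without strand, had 203, 100, 175 and 234 counts in the low-cycle oocytes and 27 and 4 in the whole oocytes at 18 cycles, against 657, 521, 793 and 786, and 29 and 19 for Cdc45.

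All 10 genes were expressed in GV oocytes. In the low-cycle oocytes the mean level of each member lay between the 70.3 percentile (Mcm7) and the 95.6 percentile (Rpa1) of the 17432 genes detected there, by CPM. Levels of different genes were compared as CPM per kb of merged exons. On this scale the subunits of RPA lay close together, with 45.5 ± 3.12 for Rpa1, the large subunit, 40.3 ± 4.71 for Rpa2, the middle subunit, and 43.1 ± 6.45 for Rpa3, the small subunit (SD, n = 4 oocytes), so their order was not resolved beyond the spread between oocytes. With the length of the longest transcript in place of the merged exons, a length chosen after seeing the data, the levels per kb were 50.03 for Rpa1, 66.6 for Rpa2 and 73.1 for Rpa3, so their order depends on the length used.

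Of the Mcm ring subunits described, Mcm5 had the highest level per kb in the low-cycle oocytes, 44.5 ± 3.46 CPM per kb, and Mcm7 the lowest, 9.01 ± 1.33. Mcm6 (25.5 ± 2.46), Mcm3 (22.2 ± 1.497) and Mcm2 (20.9 ± 0.995 CPM per kb) lay between them. The ranges of Mcm6 and Mcm3 overlapped between oocytes, as did those of Mcm3 and Mcm2, although Mcm6 lay above Mcm3 in each oocyte. Mcm5 lay above and Mcm7 below the others in each oocyte. The measured levels per kb of subunits that form one ring were therefore not equal here. Those of Mcm5, Mcm6 and Mcm7 stay uncertain by reads shared with the copies named above. The helicase activator Cdc45 had 16.7 ± 1.06 and the loader Cdc6 had 15.7 ± 1.54 CPM per kb, which overlapped. With the longest transcript as the length, Mcm5 had the highest mean of these ring subunits at 52.5 CPM per kb and Mcm7 the lowest at 13.5, but Mcm2 was at 43.2, above Mcm3 at 27.5 and Mcm6 at 27.4. On this length Cdc45 was at 27.4 and Cdc6 at 17.8 CPM per kb without overlap between oocytes, so the order between the highest and the lowest level depends on the length used.

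The whole oocytes at 14 and 10 cycles were compared to see whether 4 more cycles of amplification move these genes. Cdc45 had 56.7 and 56.7 CPM at 10 cycles and 64.2 and 56.9 CPM at 14 cycles. Rpa3 had 44.4 and 59.4 CPM at 10 cycles and 43.4 and 48.7 CPM at 14 cycles. The ranges of Rpa3 overlapped, and the lower value of Cdc45 at 14 cycles lay next to those at 10 cycles. The log2 fold changes of the 10 members lay between -0.38 for Mcm7 and 0.19 for Rpa2, with a median of -0.10 beside 0.01 for all genes. By the quasi-likelihood test of edgeR after Benjamini-Hochberg correction at 0.01, 0 of the 10 members and 0 of 17532 genes (0%) were called, with an unadjusted p under 0.05 for 0 members and 513 genes. DESeq2 called 0 members and 2 genes, so a difference of the members between 10 and 14 cycles was not detected with 2 oocytes a group.

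At 18 cycles the picture of the members in whole oocytes was different, and since this contrast chose Cdc45 and Rpa3, its values are given as a description. The helicase activator Cdc45 had 9.61 and 11.1 CPM at 18 cycles, on 29 and 19 counts, which was 17.7% of its mean in the low-cycle oocytes. Rpa3 had 5.30 and 4.69 CPM, on 16 and 8 counts, or 10.2% of its low-cycle mean. Cdc6 had 27.8 and 39.8 CPM at 18 cycles, against 85.6, 75.7, 91.6 and 74.9 CPM in the low-cycle oocytes. For these 3 genes both oocytes at 18 cycles lay below all 4 low-cycle oocytes. Mcm6, a subunit of the ring, went the other way in CPM, with 213 and 235 at 18 cycles against 125, 119, 103 and 129 in the low-cycle oocytes.

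The other RPA subunits were also lower at 18 cycles in CPM, though by less than Rpa3. Rpa1 had 168 and 104 CPM against 274, 232, 251 and 258 in the low-cycle oocytes, and Rpa2 had 77.2 and 56.3 against 109, 114, 119 and 141. Per kb of exon, the RPA subunits that were level with one another in the low-cycle oocytes were at 24.4 ± 8.04 for Rpa1, 22.3 ± 4.95 for Rpa2 and 4.40 ± 0.383 CPM per kb for Rpa3 at 18 cycles (SD, n = 2). Mcm7 overlapped between the groups, with 45.4 and 57.4 CPM at 18 cycles and 34.3 to 47.2 in the low-cycle oocytes, as did Mcm5, with 177 and 117 against 161 to 195 CPM. In CPM, 8 of the 10 members had ranges at 18 cycles that did not overlap those of the low-cycle oocytes, as did 62.5% of the 17432 genes detected there.

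**Figure D1:**
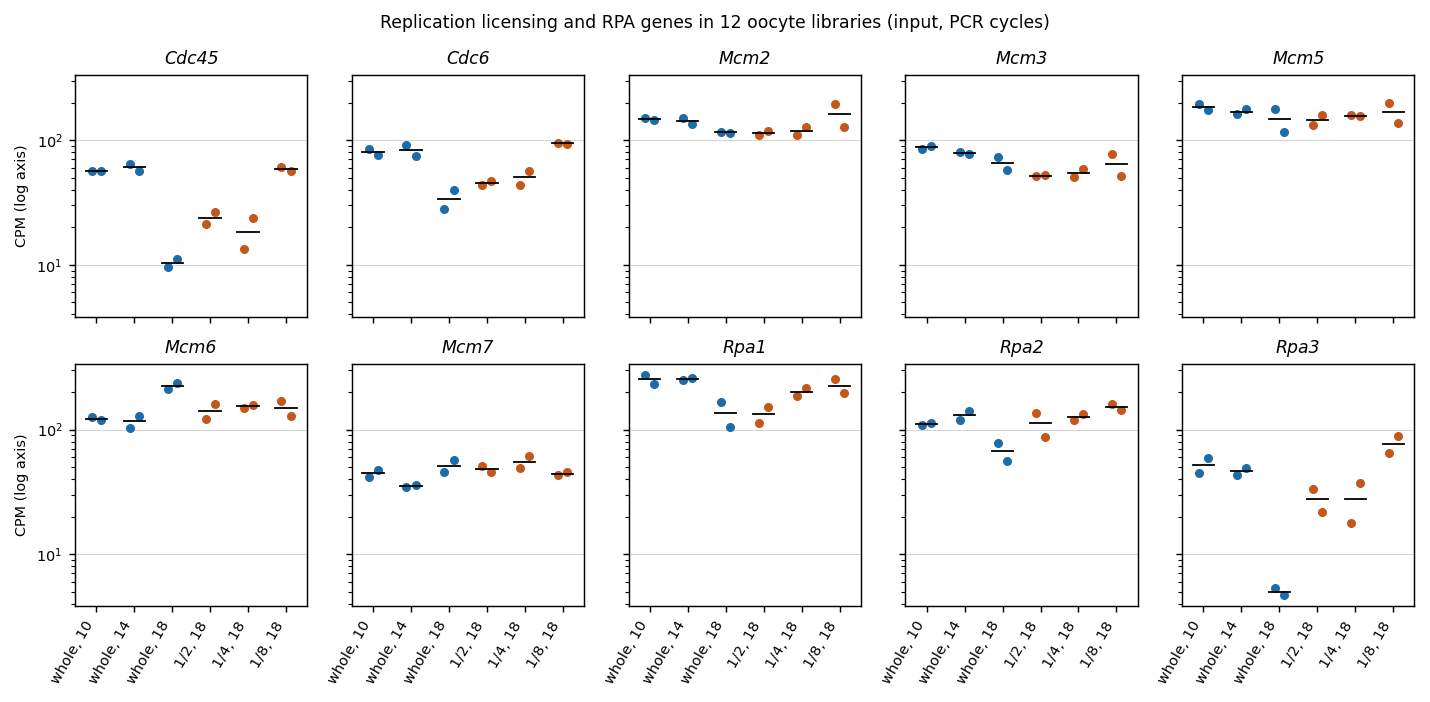
CPM of the 10 genes (log axis) in each of the 12 libraries by oocyte input and number of PCR cycles. Points are libraries, blue for whole oocytes and orange for fractions, and black lines are means of 2. Cdc45 lies at 9.61 and 11.1 CPM in whole oocytes at 18 cycles and at 60.9 and 57.0 CPM in 1/8.

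With median-ratio size factors, which centre the genes counted in all libraries, the log2 fold changes at 18 cycles against the mean of 10 and 14 cycles were -3.01 for Rpa3, -2.24 for Cdc45, -1.01 for Cdc6, -0.63 for Rpa1, -0.57 for Rpa2, 0.66 for Mcm7 and 1.20 for Mcm6. Those of Mcm2, Mcm3 and Mcm5 were -0.05, -0.07 and 0.00, so the lower CPM of Mcm2 and Mcm3 at 18 cycles was not seen on this scale. Cdc45, Rpa3, Cdc6 and Mcm6 lay past an adjusted p of 0.01 in the quasi-likelihood test of edgeR after Benjamini-Hochberg correction, 4 of 10 members where 28% of the 17532 genes did, and nothing is read from this count. The median over the 10 members was -0.32 and that over all genes -0.29. With at least 10 counts in every library, 5 of 9 members and 4605 of 9073 genes were called, and the median of these genes was 0.02. The ERCC counts were 1611 and 1474 at 18 cycles and 25528 to 39046 in the low-cycle oocytes. Each of these libraries held 1 oocyte and received the same amount of spike-in, and the cause of the difference was not tested. With ERCC size factors the median of all genes moved to 1.97 and the log2 fold changes of the members lay between -0.76 for Rpa3 and 3.41 for Mcm6, with 0.00 for Cdc45. With these factors 8 members and 9317 genes were called, Cdc45 and Rpa3 not among them, and Cdc6 was at 1.19. Relative to the median of all genes on that scale, Cdc45 lay at -1.97, Rpa3 at -2.72, Cdc6 at -0.78 and Mcm6 at 1.45. Cdc6 was not called in 5 of the 6 fits that left out 1 oocyte each, with a log2 fold change from -1.07 to -0.66. It kept its call without replicate 2 of 18 cycles, at -1.32. Rpa1 was called without replicate 1 of 18 cycles, with a log2 fold change of -0.90.

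GC content and length were set beside these changes as a description. Across the 13927 protein-coding genes tested, which are not independent replicates, the log2 fold change at 18 cycles had a Spearman's rho of 0.39 with the GC content of the longest transcript and of -0.09 with its length. For the 10 members the rho was 0.47 with GC content and 0.31 with length. The part of GC content in the values of Rpa3 or Cdc45 was not tested.

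The fractions, also amplified for 18 cycles, were set beside the same 4 low-cycle oocytes, and all comparisons with these oocytes share them. Cdc45 had 21.1 and 26.4 CPM in 1/2, 13.4 and 23.6 in 1/4, and 60.9 and 57.0 in 1/8. It was thus below the low-cycle range of 56.7 to 64.2 CPM in 1/2 and 1/4 and inside it in 1/8. Rpa3 had 33.0 and 22.0 CPM in 1/2, 17.9 and 37.2 in 1/4, and 65.0 and 88.1 in 1/8, below the low-cycle oocytes in 1/2 and 1/4 and above them in 1/8. Cdc6, the loader, had 43.7 and 46.7 CPM in 1/2, 43.7 and 56.6 in 1/4, and 94.9 and 94.0 in 1/8. Like Rpa3 it lay below all 4 low-cycle oocytes in the larger fractions and above them in 1/8. The mean of Cdc45 was 40.5% of its low-cycle mean in 1/2, 31.5% in 1/4 and 101% in 1/8, and that of Rpa3 was 56.1%, 56.2% and 156%.

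The large RPA subunit Rpa1 had 113 and 152 CPM in 1/2, 187 and 216 in 1/4, and 253 and 195 in 1/8, and it lay below the low-cycle oocytes in 1/2 and 1/4 and overlapped them in 1/8. Rpa2 had 136 and 87.3 CPM in 1/2, 119 and 133 in 1/4, and 160 and 143 in 1/8, and it overlapped the low-cycle oocytes in 1/2 and 1/4. Mcm6 had 122 and 159 CPM in 1/2, 149 and 158 in 1/4, and 171 and 129 in 1/8. None of these reached the 213 CPM seen in the lower of the whole oocytes at 18 cycles. The remaining ring subunits Mcm2, Mcm3, Mcm5 and Mcm7 had group means in the fractions between 62.3% (Mcm3 in 1/2) and 139% (Mcm7 in 1/4) of their low-cycle means. The CPM ranges of 7 members in 1/2, 9 in 1/4 and 4 in 1/8 did not overlap the low-cycle range, as did those of 60%, 55.8% and 31.6% of the detected genes.

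Fits of all 12 libraries with median-ratio size factors gave the changes against the low-cycle oocytes, again as a description, because these oocytes also entered the choice of genes. For Cdc45 the log2 fold change was -1.05 (SE 0.27) in 1/2, -1.53 (SE 0.28) in 1/4 and 0.08 (SE 0.25) in 1/8. For Rpa3 it was -0.57 (SE 0.30), -0.70 (SE 0.30) and 0.71 (SE 0.28), and for Cdc6 -0.60, -0.58 and 0.28. Cdc45 was the member called in 1/2 and in 1/4, 1 of 10 in each, where 21.1% and 13.8% of the 18041 genes were called by the quasi-likelihood test of edgeR after Benjamini-Hochberg correction at 0.01. In 1/8 the test called 0 members and 0 genes (0%), with an unadjusted p under 0.05 for 1 member (Rpa3) and 2866 genes, and DESeq2 called 0 members and 190 genes. The call of Cdc45 in 1/2 was lost in each of the 6 fits that left out 1 library, with a log2 fold change from -1.17 to -0.92, and in 1/4 without replicate 1 of 1/4, with a log2 fold change of -1.23. The background moved as well, from 3800 to 1828 genes in 1/2 without replicate 1 of 1/2, from 2496 to 858 and 1269 genes in 1/4 without replicate 1 and replicate 2 of 1/4, and from 0 to 14 genes in 1/8 without replicate 1 of 1/8. With ERCC size factors the test called 0 members and 2566 genes in 1/2, 2 members and 2249 genes in 1/4, and all 10 members and 14043 genes, each lower, in 1/8. On that scale Cdc45 was at -0.91 in 1/2, -2.22 in 1/4 and -2.71 in 1/8, where the median of all genes was -0.13, -0.85 and -2.84, and Rpa3 was at -2.10 in 1/8. Relative to these medians Cdc45 lay at -0.78, -1.38 and 0.12. With median-ratio size factors Mcm6 had log2 fold changes of 0.49, 0.50 and 0.41 in 1/2, 1/4 and 1/8 against 1.20 in whole oocytes at 18 cycles, and the difference was not tested.

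Comparisons among fractions hold the cycle number at 18 and use libraries outside the contrast that chose Cdc45 and Rpa3. The whole oocytes at 18 cycles, which are part of that contrast, add to the estimate of spread. The members were also chosen with earlier results of these data known, so these tests are not fully independent of the choice. The log2 fold changes of the members from 1/2 to 1/4 lay between -0.46 for Cdc45 and 0.51 for Rpa1, with a median of 0.02, equal to that of all genes at 2 decimals. By the quasi-likelihood test of edgeR after Benjamini-Hochberg correction, 0 of 10 members and 0 of 14788 genes (0%) were called, with an unadjusted p under 0.05 for 0 members and 1842 genes. DESeq2 called 0 members and 26 genes, so a difference of the members was not detected, which does not show that they were equal. Rpa1, with 113 and 152 CPM in 1/2 and 187 and 216 in 1/4, did not overlap but was not called either.

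From 1/4 to 1/8, Cdc45 rose from 13.4 and 23.6 to 60.9 and 57.0 CPM, with no overlap, on 54, 119, 694 and 97 counts. The log2 fold change was 1.62 (SE 0.38, adjusted p = 0.00744 by the quasi-likelihood test of edgeR after Benjamini-Hochberg correction), and it was the 1 member of 10 called, beside 4.96% of the 14788 genes. The call was lost in each of the 4 fits that left out 1 of these libraries (log2 fold change 1.32 to 2.02, adjusted p from 0.0247 to 0.174 by the same edgeR test), so it rests on all 4. Of all genes, 734 were called with these libraries, but 444 and 157 without replicate 1 and replicate 2 of 1/8, and 102 and 330 without replicate 1 and replicate 2 of 1/4. Over all 11 alternatives the log2 fold change ranged from -0.56 to 2.02 and the adjusted p from 0.00163 to 0.353, the -0.56 and the 0.353 coming from ERCC size factors, where all genes had a median of -2.19. Relative to the median of all genes, Cdc45 lay at 1.63 on that scale and at 1.60 with median-ratio size factors. Rpa3 went from 17.9 and 37.2 to 65.0 and 88.1 CPM without passing the threshold (log2 fold change 1.41, SE 0.39, adjusted p = 0.0203 by edgeR's quasi-likelihood test), and Cdc6 from 43.7 and 56.6 to 94.9 and 94.0 CPM (log2 fold change 0.86, SE 0.32, adjusted p = 0.086 by the same test). These 3 genes had the largest log2 fold changes among the members in this comparison, and the other 7 lay between -0.38 for Mcm7 and 0.41 for Mcm2. The median of the members was 0.20 beside 0.01 for all genes.

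In 1/8 against 1/2 the same 3 genes had the largest values among the members, with log2 fold changes of 1.30 (SE 0.39) for Rpa3, 1.15 (SE 0.37) for Cdc45 and 0.90 (SE 0.32) for Cdc6, and 0.60 (SE 0.29) for Rpa1. None passed the threshold, with adjusted p of 0.0286, 0.0414, 0.0644 and 0.167 by the quasi-likelihood test of edgeR after Benjamini-Hochberg correction, so 0 of 10 members were called where 5.94% of the genes were. The unadjusted p was under 0.05 for these 4 members and for 4285 genes, and DESeq2 called 0 members and 1448 genes. The 878 genes called by edgeR became 517 and 198 without replicate 1 and replicate 2 of 1/8, and 83 and 361 without replicate 1 and replicate 2 of 1/2. The median of the members was 0.31 and that of all genes 0.04. The libraries of 1/8 are shared with the comparison of 1/8 and 1/4. Depth differed 6.70-fold between the libraries of 1/8, and the CPM of the members differed between them by 1.01-fold (Cdc6) to 1.53-fold (Mcm2). The part of depth in these values was not tested.

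Counts were also set against the spike-in, of which each library received the same amount. Gene counts per ERCC count did not order all groups by input, with 323 to 360 in the low-cycle oocytes, 1873 and 1158 in whole oocytes at 18 cycles, 439 and 344 in 1/2, 214 and 174 in 1/4, and 49.3 and 46.5 in 1/8. Among the fractions they fell with input. Per 1000 ERCC counts, Cdc45 had 9.27 and 9.08 counts in 1/2, 2.87 and 4.09 in 1/4, and 2.998 and 2.65 in 1/8. From 1/4 to 1/8 its libraries overlapped, although the input was cut by a further 2-fold dilution. Rpa3 had 14.5 and 7.55, then 3.83 and 6.47, then 3.20 and 4.10 counts per 1000 ERCC counts, with the values of 1/4 and 1/8 also overlapping. Every member other than Cdc45 and Rpa3 fell at each step on this scale with no overlap between fractions. Mcm6, for example, had 53.6 and 54.6, then 32.0 and 27.5, then 8.42 and 6.01. Mcm7 had 22.5 and 15.6, then 10.5 and 10.7, then 2.11 and 2.13. The share of all genes without overlap was not computed for this scale.

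With ERCC size factors, dilution alone gives a log2 fold change of -1 for each step. From 1/2 to 1/4 the median was -0.73 over all genes and -0.73 over the members, which lay between -1.24 for Cdc45 and -0.23 for Rpa1. The edgeR test called 0 of 10 members and 6 genes (0.0406%), with an unadjusted p under 0.05 for 1 member, Cdc45, and 3532 genes, and DESeq2 called 0 members and 459 genes. Without replicate 1 or replicate 2 of 1/2 the 6 genes became 0, and without replicate 1 and replicate 2 of 1/4 they became 1 and 2. From 1/4 to 1/8 the median was -2.19 over all genes and -2.01 over the members, and 7 of 10 members were called, all lower, where 60.2% of the genes were. Those not called were Cdc45 with -0.56 (SE 0.55), Rpa3 with -0.76 (SE 0.57) and Cdc6 with -1.35 (SE 0.49), and the lowest was Mcm7 with -2.59 (SE 0.51). Without replicate 2 of 1/8, 4 members were called, the calls of Rpa2 (-1.97), Mcm2 (-1.57) and Mcm3 (-1.81) being lost, and without replicate 1 of 1/4 that of Mcm2 (-1.71) was lost.

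From 1/2 to 1/8, where dilution gives -2, all 10 members were called lower with ERCC size factors, beside 71.8% of the genes. The smallest falls were those of Rpa3 at -1.73 (SE 0.58, adjusted p = 0.00609 by the quasi-likelihood test of edgeR after Benjamini-Hochberg correction) and Cdc45 at -1.80 (SE 0.56, adjusted p = 0.00355 by the same test), and the largest was that of Mcm7 at -3.28. All genes had a median of -2.91 and the members one of -2.69, so the median gene fell by more than the dilution on this scale. The calls of Cdc45 and Rpa3 were each lost in 3 of the 4 fits that left out 1 library, all but the fit without replicate 2 of 1/2. The log2 fold changes in these 3 fits were -1.90 to -1.71 for Cdc45 and -1.97 to -1.09 for Rpa3. Without replicate 2 of 1/2 Rpa3 was at -2.18. In this comparison 7 of the 10 members lay above the median of all genes with median-ratio size factors, ERCC size factors and total ERCC counts. Mcm6 and Mcm7 lay below it on these scales, and Mcm5 lay within 0.0026 of it.

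**Figure D2:**
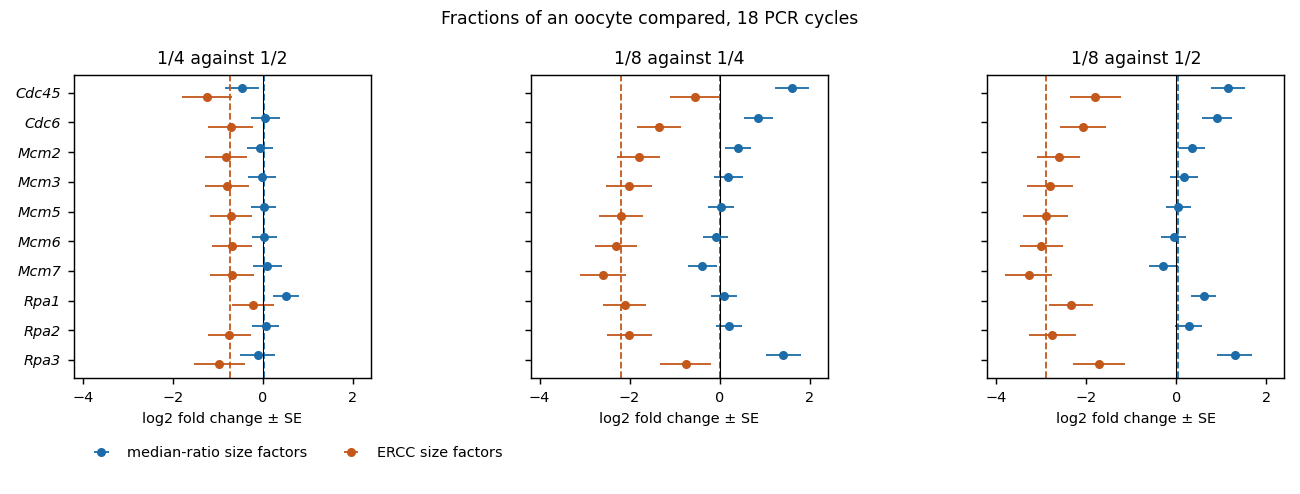
Log2 fold changes of the 10 genes between fractions (horizontal axis, with SE) with median-ratio size factors in blue and ERCC size factors in orange. Dashed lines mark the median of all genes, which was 0.04 and -2.91 from 1/2 to 1/8, and Cdc45, Rpa3 and Cdc6 lie to its right on both scales in the comparisons with 1/8.

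The rest of the replication machinery was examined in 5 lists with 59 genes, of which 58 were tested. Between 14 and 10 cycles and between 1/4 and 1/2, 0 of the 58 were called, and their median log2 fold changes were -0.04 and -0.15. At 18 cycles against 10 and 14 cycles in whole oocytes, 15 of the 58 were higher and 11 lower by the quasi-likelihood test of edgeR after Benjamini-Hochberg correction at 0.01, beside 15.4% and 12.6% of all genes, and their median was 0.27 where that of all genes was -0.29. This background depends on the filter. Among the 9073 genes with at least 10 counts in every library, 2346 were higher and 2259 lower, with a median of 0.02. The listed genes had 12 higher and 10 lower with that filter, so no excess is read from the counts. In 1/2 against the low-cycle oocytes 16 were higher and 6 lower, beside 12.3% and 8.81% of all genes. In 1/4 there were 7 higher and 3 lower, beside 8.48% and 5.35%, and in 1/8 there were 0. With at least 10 counts in every library, 1789 of 8329 genes were higher and 1564 lower in 1/2, and 14 and 5 listed genes were. In 1/4 with that filter, 1260 genes were higher and 1057 lower, and 7 and 4 listed genes were. From 1/2 to 1/8, 2 were higher and 5 lower, beside 2.08% and 3.86% of all genes, and from 1/4 to 1/8, 0 were higher and 2 lower, beside 1.54% and 3.42%. These directions hold for median-ratio size factors. With ERCC size factors the listed genes had 48 rises and 0 falls at 18 cycles in whole oocytes (9314 and 3 among all genes), 12 and 2 in 1/2 (1890 and 676), 1 and 6 in 1/4 (284 and 1965), 0 and 56 in 1/8 (0 and 14043), 0 and 0 from 1/2 to 1/4 (1 and 5), 0 and 44 from 1/4 to 1/8 (0 and 8895), and 0 and 52 from 1/2 to 1/8 (0 and 10622).

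Leaving out 1 library changed many of these counts. From 1/2 to 1/8 each of the 4 fits that left out 1 library called 1 lower gene in place of 5, and the 2 higher ones became 1 without replicate 1 of 1/8 and 0 in the other fits. From 1/4 to 1/8 the 2 lower genes were called without replicate 2 of 1/4, and none was in the other 3 fits. In 1/2 against the low-cycle oocytes 8 were higher and 3 lower without replicate 1 of 1/2. In 1/4, 2 were higher and 0 lower without replicate 1 of 1/4, 0 were lower without replicate 2 of 1/4, and 1 was lower without replicate 1 of 10 cycles or either oocyte of 14 cycles. At 18 cycles in whole oocytes the 11 lower genes became 7 without replicate 1 of 14 cycles or replicate 1 of 18 cycles.

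Of the 12 genes for origin recognition and licensing control, which include the remaining ring subunit, 3 were higher and 3 lower in whole oocytes at 18 cycles, where 15.4% and 12.6% of all genes were. Orc1, the largest subunit of the origin recognition complex, had 95.7, 93.6, 110 and 93.4 CPM in the low-cycle oocytes and 26.2 and 18.2 at 18 cycles, a log2 fold change of -1.85 (SE 0.22). Orc3 changed by -1.88 (SE 0.25) and had 54.6 and 69.3 CPM in 1/8, close to its 53.4 to 72.5 CPM in the low-cycle oocytes. Orc3 rose from 1/2 to 1/8 by 1.56 (SE 0.36, adjusted p = 0.00636 by edgeR's quasi-likelihood test), a call lost in each of the 4 fits that left out 1 library (1.39 to 1.75). Cdt1, the partner of Cdc6 in loading, went the other way, with 656 and 792 CPM at 18 cycles against 237 to 259 in the low-cycle oocytes.

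Cdt1 stayed high in the larger fractions, with 563 and 635 CPM in 1/2 and 810 and 626 in 1/4, and had 309 and 252 CPM in 1/8. Its fall from 1/4 to 1/8 was -1.42 (SE 0.28, adjusted p = 0.00242 by edgeR's quasi-likelihood test) and that from 1/2 was -1.25 (SE 0.28, adjusted p = 0.00508 by the same test). The call from 1/4 was kept without replicate 2 of 1/4 (-1.65) and lost without replicate 1 of 1/4 (-1.16), replicate 1 of 1/8 (-1.55) or replicate 2 of 1/8 (-1.27), and that from 1/2 was lost in each of 4 fits (-1.39 to -1.11). Mcmbp, which binds Mcm subunits outside the ring, and Mcm9, a relative of the ring subunits, were higher at 18 cycles by 2.30 (SE 0.21) and 2.19 (SE 0.27), and Mcm9 fell by 1.46 (SE 0.32) from 1/2 to 1/8. Orc5 changed in 1/4 by -0.72 (SE 0.19). The call of Mcm9 from 1/2 to 1/8 was lost in each of the 4 fits without 1 library (-1.65 to -1.29), and that of Orc5 in each of 6 (-0.77 to -0.66).

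Of the 13 origin firing genes, which act with Cdc45, 2 were higher and 2 lower in whole oocytes at 18 cycles, which is near the 15.4% and 12.6% of all genes. Gins4, a subunit of the GINS complex that forms the helicase with Cdc45, was higher by 1.61 (SE 0.17), and Donson, which helps to deliver GINS, by 2.03 (SE 0.28). Mtbp, needed for origin firing, changed by -1.59 (SE 0.41) and Mcm10 by -0.89 (SE 0.17). In 1/2 against the low-cycle oocytes the changes were 1.53 for Gins4, 1.94 for Donson and -0.98 for Mcm10. Donson fell by 1.60 (SE 0.37) from 1/2 to 1/8, and in 1/4 it was 1.69 above the low-cycle oocytes. That fall was lost in each of the 4 fits without 1 library (-1.95 to -1.20), and the call in 1/4 without replicate 1 of 1/4 (1.45). Mtbp kept its call at 18 cycles in the fit without replicate 2 of 18 cycles (-2.29) and lost it in the other 5 (-1.66 to -0.91). Mcm10 lost its call at 18 cycles without replicate 1 of 14 cycles (-0.84) or replicate 1 of 18 cycles (-0.83), and in 1/2 without replicate 1 of 1/2 (-0.85).

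Of the 12 genes for polymerases and primase, which use the RPA-coated template, 3 were higher and 4 lower in whole oocytes at 18 cycles, beside the same 15.4% and 12.6% of all genes. Prim1, the catalytic subunit of primase, had 32.0, 43.6, 31.2 and 33.9 CPM in the low-cycle oocytes and 3.65 and 2.93 at 18 cycles. Its log2 fold change was -3.12 (SE 0.35), and it had 30.0 and 41.7 CPM in 1/8. Its partner Prim2 changed by -1.56 (SE 0.23). Pola1, which carries the primase, changed by -1.87 (SE 0.27) in 1/2 and -1.33 (SE 0.26) in 1/4, and rose by 1.51 (SE 0.36) from 1/2 to 1/8. Pold2, a subunit of polymerase delta, was higher by 1.35 (SE 0.18) at 18 cycles, 1.46 in 1/2 and 1.08 in 1/4, and Pole4 was higher by 0.98 (SE 0.20) at 18 cycles. Pold3 was higher by 0.95 (SE 0.18) and Prim1 changed by -1.47 (SE 0.34) in 1/2. The rise of Pola1 from 1/2 to 1/8 was called without replicate 1 of 1/8 (1.84) but not in the other 3 fits without 1 library (1.14 to 1.51), and its call in 1/4 was lost without replicate 1 (-1.42) or replicate 2 (-1.23) of 1/4. Pold2 kept its call in 1/4 without replicate 2 of 14 cycles and lost it in the other 5 fits (0.88 to 1.26). Without replicate 1 of 1/2 the calls in 1/2 of Pold2 (1.10), Pold3 (0.84) and Prim1 (-1.43) were lost, that of Prim1 also without replicate 2 of 1/2 (-1.48). Pole4 was not called at 18 cycles without replicate 1 of 10 cycles (0.91), replicate 2 of 14 cycles (0.95) or replicate 2 of 18 cycles (0.73).

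Of the 13 clamp and lagging-strand genes, 4 were higher and 1 lower at 18 cycles, beside 15.4% and 12.6% of all genes. Pcna, the sliding clamp, had 37.4, 41.6, 34.3 and 36.6 CPM in the low-cycle oocytes and 14.9 and 15.2 at 18 cycles, a log2 fold change of -1.04 (SE 0.24). The clamp loader gene Rfc5 was higher by 1.48 (SE 0.20), and Rfc2 by 1.03 (SE 0.21) in 1/2. Rnaseh2c, a subunit of the enzyme that removes ribonucleotides, was higher by 1.36 (SE 0.21) in whole oocytes at 18 cycles, 2.01 in 1/2 and 1.36 in 1/4, and fell by 1.45 (SE 0.36) from 1/2 to 1/8. The call of Pcna was lost in each of the 6 fits without 1 oocyte (-1.09 to -0.91), and the fall of Rnaseh2c from 1/2 to 1/8 in each of 4 (-1.79 to -1.01). Rfc2 lost its call in 1/2 without replicate 1 of 1/2 (0.91), and Rnaseh2c in 1/4 without replicate 1 of 1/4 (1.14).

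Of the 8 partners of RPA tested, 3 were higher and 1 lower at 18 cycles, where 15.4% and 12.6% of all genes were. Etaa1, which binds RPA and activates the ATR kinase, had 361 and 373 CPM at 18 cycles against 113 to 144 in the low-cycle oocytes, a log2 fold change of 1.82 (SE 0.17). It was also higher in 1/2 by 2.26 (SE 0.19) and in 1/4 by 1.91 (SE 0.19). It fell by 1.56 (SE 0.27) from 1/4 to 1/8 and fell by 1.89 (SE 0.28) from 1/2 to 1/8, where it had 153 and 153 CPM. Rpain, which carries RPA into the nucleus, changed at 18 cycles by -1.94 (SE 0.44), with 2.32 and 6.45 CPM against 17.6 to 20.2, and Rad52 was higher by 0.91 (SE 0.20). The fall of Etaa1 from 1/2 to 1/8 was called in each of the 4 fits without 1 library (-2.01 to -1.77). That from 1/4 to 1/8 was called without replicate 2 of 1/4 (-1.74) and lost without replicate 1 of 1/4 (-1.37), replicate 1 of 1/8 (-1.54) or replicate 2 of 1/8 (-1.54). Rpain was called in the fit without replicate 2 of 18 cycles (-2.77) and Rad52 in that without replicate 1 of 14 cycles (1.03), and both lost their calls in the other 5 fits (-1.94 to -1.16 and 0.81 to 0.95).

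The genes most like Cdc45 over the 12 libraries, by Pearson's r of log2(normalized count + 1) among 8998 genes with a mean of at least 50 normalized counts, were A430033K04Rik, Dph7, Slc25a17, Shcbp1 and Nat8f2, with r from 0.979 to 0.983. Those most like Rpa3 were Med21, Gm36159, Trnt1, Sdhc and Psmb7, with r from 0.981 to 0.988. Among the members, Cdc6 was the most like Cdc45 (r = 0.936), but at rank 163 among the 8998 genes. Many genes outside the members were thus more like Cdc45 than any member was. Rpa3 had r = 0.879 with Cdc45, at rank 707 by likeness to Cdc45, while Cdc45 had rank 302 by likeness to Rpa3. Mcm6 had r = -0.799 with Cdc45 and -0.816 with Rpa3. These are descriptions over 12 libraries that share an animal, differ in depth and include those from which Cdc45 and Rpa3 were chosen.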

How the data were processed

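The deposited values are raw HTSeq counts of genes and ERCC molecules, which the authors made with cutadapt 2.5, STAR 2.7.2a and HTSeq 0.9.1 on mm10 according to the submitters' processing notes, while the methods name other versions. The counts were neither normalized nor deduplicated. The methods give default counting, and whether strand was used was not settled, although 6.90% to 10.8% of a library's reads fell on no feature and 2.64% to 4.53% were ambiguous, both left out of library sizes. Symbols and lengths came from GENCODE M21, which lists 55480 of the 55573 genes. CPM was computed over gene counts. Changes were tested with edgeR 4.0.16 in R 4.3.3 (quasi-likelihood test, Benjamini-Hochberg adjustment over all genes tested, threshold 0.01) keeping features that reached 5 counts in 2 or more of the libraries fitted. The fits held the 6 whole oocytes, the 8 libraries at 18 cycles or all 12 libraries, with median-ratio size factors over genes or over ERCC molecules. The SE is the log2 fold change over the root of the F statistic.

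The members and lists were chosen with earlier results of these data known. Named beside the members are, from each list and comparison, the 2 largest rises and 2 largest falls past the threshold with a mean of at least 50 normalized counts, and the 5 genes most like Cdc45 and Rpa3. Other genes overlapping or matching a member, and markers, are named where their counts are given. Alternatives were DESeq2 1.42.0, TMM or ERCC size factors, total ERCC counts, other filters, the replicate number as a block, only the groups compared, each library left out, and other CPM denominators. The fits for 14 against 10 cycles, 1/4 against 1/2 and 1/2 against low cycles were tested on simulated data with a fixed spread. There 2-fold changes were not called, and 4-fold changes were called in part, at a spread that was set and not taken from these data. In the data a smaller change was called, 0.95 on the log2 scale for Pold3 in 1/2 against low cycles. The simulation therefore sets no limit for what could be detected here. A count of 0 called genes does not show that no gene differed. Copies of members were sought by aligning transcript sequences.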

Additional observations from a re-analysis of the deposited data

How the results depend on the processing

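The counts of called members were the same, within 1.5 times, in 103 of 125 recomputations, and 22 moved. Many of the 103 had 0 called members before and after, as in all those of 14 against 10 cycles and of 1/4 against 1/2. The tally therefore says little about calls that were made. ERCC size factors in place of median-ratio ones moved the counts of called members most, to 8 at 18 against 10 and 14 cycles, 7 from 1/4 to 1/8, 10 from 1/2 to 1/8, 0 in 1/2 against low cycles, 2 in 1/4 and 10 in 1/8, and the cause was not tested. Without a filter 2 members were called from 1/4 to 1/8. In 1/2 against low cycles 2 were called by DESeq2 and 2 with at least 10 counts in every library, and in 1/4 against low cycles 2 with only the groups compared, and the cause was not tested for these 4. Leaving out 1 library each gave 3 to 4 called members at 18 against 10 and 14 cycles, 0 to 0 from 1/4 to 1/8 and in 1/2 against low cycles, 0 to 1 in 1/4 against low cycles, and with ERCC 4 to 7 from 1/4 to 1/8 and 8 to 10 from 1/2 to 1/8. A library left alone in its group is assumed to vary like the other groups.

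With ERCC size factors 26 log2 fold changes that passed the threshold on at least 1 of the scales changed sign, as did 13 that passed it on neither, among them those of Rpa3 (-0.76) and Cdc6 (-1.35) from 1/4 to 1/8. This scaling shifted the median of all genes, and relative to it no member moved by more than 0.10 and 2 of 80 values, both in 1/4 against 1/2, changed side. Of the 26, at 18 against 10 and 14 cycles they were 1.70 for Rpa1, 1.72 for Rpa2, 2.19 for Mcm2, 2.20 for Mcm3 and 1.19 for Cdc6. From 1/4 to 1/8 they were -0.56 for Cdc45, -2.11 for Rpa1, -2.01 for Rpa2, -1.80 for Mcm2, -2.01 for Mcm3 and -2.19 for Mcm5. For 1/8 against 1/2 they were -1.80 for Cdc45, -2.34 for Rpa1, -2.75 for Rpa2, -1.73 for Rpa3, -2.62 for Mcm2, -2.80 for Mcm3, -2.90 for Mcm5 and -2.07 for Cdc6. In 1/8 against low cycles they were -2.71 for Cdc45, -2.40 for Rpa2, -2.10 for Rpa3, -2.56 for Mcm2, -2.39 for Mcm6, -2.57 for Mcm7 and -2.52 for Cdc6. Of all log2 fold changes of members, 1097 kept their sign and side of the threshold, 29 lost and 23 gained a call, and 64 uncalled ones changed sign.

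With the replicate number as a block, 8 members in place of 7 were called from 1/4 to 1/8 with ERCC and no other count of called members moved. Same-numbered libraries deviated with correlations from -0.143 to 0.151 between pairs of groups, so the number was not taken to pair libraries, although fraction libraries share oocytes in a way the sources do not give. Mean CPM moved by over 1 SD in 35 of 60 group means when reads on no feature and ambiguous reads were added and in 23 with TMM scaling. At 18 cycles Rpa3 rests on 16 and 8 counts and Cdc45 on 29 and 19, which limits their precision. Counts of all called genes moved by over 1.5 times from 734 to 1111 (DESeq2) and 1216 (no filter) from 1/4 to 1/8, from 878 to 1448 and 1340 from 1/2 to 1/8, and from 2496 to 3899 in 1/4 against low cycles with only the groups compared. In 1/4 against 1/2 with ERCC, 6 became 459 (DESeq2), 2 (total ERCC counts), 27 (no filter), 82 (at least 10 counts), 885 (replicate block) and 1009 (only the groups compared). Without ERCC, 0 became 91 with no filter, 14 with the block and 3 with only these groups. With 1 library left out, 102 to 444 genes were called from 1/4 to 1/8, 83 to 517 from 1/2 to 1/8, 1828 to 3188 in 1/2 against low cycles and 858 to 2012 in 1/4. No filter gave 9 between 14 and 10 cycles and 236 in 1/8 against low cycles.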
